A study of Mus musculus with 135 samples.

Results

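The genes described here encode the subunits, assembly chaperones, activators and inhibitor of the proteasome, together with valosin-containing protein (VCP, gene Vcp). They were chosen by symbol from the deposited mouse gene tables: Psm, a letter from a to g and a number, leaving out the 3 inducible immunoproteasome subunits Psmb8, Psmb9 and Psmb10, plus Vcp. This gave 46 of 55416 genes. By role they were 8 genes of the 20S alpha ring, 8 of the beta ring, 6 of the 19S ATPases, 11 other 19S subunits, 3 assembly chaperones of the 19S particle, 4 of the 20S core, 5 activators and inhibitor, and Vcp.

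RNA was sequenced from the cortex and hippocampus of male Townes mice, in which human globin genes replace the mouse ones. SS mice carry the sickle globin and model sickle cell disease, and AA mice carry the normal human globin and served as controls. Mice of either genotype were left as controls (AA, SS), were put through repeated social defeat, a psychosocial stress in which the mouse is repeatedly attacked by an aggressor (AA + RSD, SS + RSD), received the tetracycline antibiotic minocycline in drinking water without defeat (AA + minocycline, SS + minocycline), or received both (AA + RSD + minocycline, SS + RSD + minocycline). All mice were adults, and the libraries came from bulk tissue, so that fewer cells of a type and less RNA per cell cannot be told apart. In cortex 12 AA, 3 AA + RSD, 18 AA + RSD + minocycline, 1 AA + minocycline, 8 SS, 6 SS + RSD, 14 SS + RSD + minocycline and 4 SS + minocycline libraries were compared. The hippocampus had 11 AA and 7 SS libraries and the same numbers in the other groups. Reads on genes per library ran from 16295042 to 107713193 in cortex (median 33447552, 68 libraries) and from 12869149 to 68731008 in hippocampus (median 34199033, 66 libraries). Levels are given as CPM, reads of a gene scaled to a fixed total of reads on genes per library, and a gene was called changed at an adjusted p under 0.05 (edgeR quasi-likelihood test, Benjamini-Hochberg adjustment over all genes tested).

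The proteasome is the protease that degrades proteins tagged with ubiquitin in the cytoplasm and nucleus. Its barrel-shaped 20S core is built of alpha rings, which gate the entrance, and beta rings, which hold the proteolytic sites. The 19S particle recognises the tagged protein, removes the ubiquitin and, through its ring of ATPases, unfolds and feeds the protein into the core. VCP is a separate ATPase that pulls ubiquitin-tagged proteins out of membranes and complexes ahead of the proteasome, and inherited VCP mutations cause frontotemporal dementia and motor neuron disease. Neurons depend on this route because they cannot dilute damaged proteins by dividing. Proteasome genes are known to be raised together by the transcription factor NRF1 (gene Nfe2l1), which binds antioxidant response elements with a small MAF protein.

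Several libraries went against their labels or each other. The cortex library of AA + RSD mouse 9674 had a summed level of 132.0 CPM over cortex marker genes, where the other AA cortex libraries had 296.0 to 726.0, and 287.0 CPM over hippocampus markers, where the others had 45.1 to 96.3. Its hippocampus library showed the opposite, with 633.0 CPM of cortex markers against 113.0 to 232.0 and 54.1 CPM of hippocampus markers against 207.0 to 615.0. Both were kept as labelled. For the AA + RSD comparisons, values of Vcp and most medians are also given without this mouse. Alas2, an erythroid gene, was at 95.9 CPM in cortex and 55.5 CPM in hippocampus of AA mouse 5844, and at 51.9 and 46.2 CPM in AA + RSD + minocycline mouse 5853. It ran from 2.91 to 20.6 CPM in the cortex of the other AA-genotype mice, leaving out mice 9631 (2.61 CPM) and 9674 (7.35 CPM), and from 9.07 to 180 CPM in SS-genotype cortex, leaving out mouse 7078. SS + RSD + minocycline mouse 7078 had 6.47 and 3.47 CPM of Alas2, and AA mouse 9631 had 37 and 31.3 CPM of the mouse globin gene Hbb-bs, which was at 0.224 CPM or lower in the cortex of the other AA-genotype mice. The files of AA + RSD + minocycline mouse 9877 and SS + minocycline mouse 9887 held identical counts in both tissues, and these 4 libraries were left out.

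The mouse numbers in the labels fell into separate runs, called series A, B and C here. What the runs stand for is not stated in the labels. All mice with RSD alone were in series A and all mice with RSD and minocycline were in series B or C, while the untreated controls were split: in cortex 4 AA and 2 SS controls were in series A, and 8 AA and 6 SS in series B. The effects of RSD and of minocycline in mice with RSD can therefore be separated from the number series only through the control mice.

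Per kilobase of exon, the highest levels in AA cortex were those of the 19S ATPase Psmc5 at 119 ± 20.4 CPM per kb, the beta subunit Psmb4 at 92.6 ± 18.9 and the ATPase Psmc3 at 90.7 ± 15.9 (mean and SD, n = 12). Counted per kilobase of coding sequence these genes ranked 2nd, 4th and 10th of the 46. The lowest were Psmg3, a chaperone of 20S assembly, at 4.9 ± 1.02 CPM per kb of exon, Psma8, the testis form of an alpha subunit, at 0.162 ± 0.0767, and Psmb11, the thymus form of a catalytic beta subunit, at 0.0687 ± 0.0414. Psma8 and Psmb11 were thus near 0 in cortex while every other ring subunit was well expressed. All 4 chaperones of 20S assembly lay below all 19S ATPases on both length scales, the highest of them, Psmg2, at 17.8 ± 2.94 CPM per kb of coding sequence and the lowest ATPase, Psmc6, at 61.7 ± 5.9. Vcp was at 79.2 ± 8.12 CPM per kb of exon and 127 ± 13 per kb of coding sequence, among the 7 highest on either scale, and unscaled it had the highest level of the 46, 307.7 ± 31.5 CPM. In AA hippocampus it was at 299.6 ± 27.1 CPM (n = 11).

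**Figure D1:**
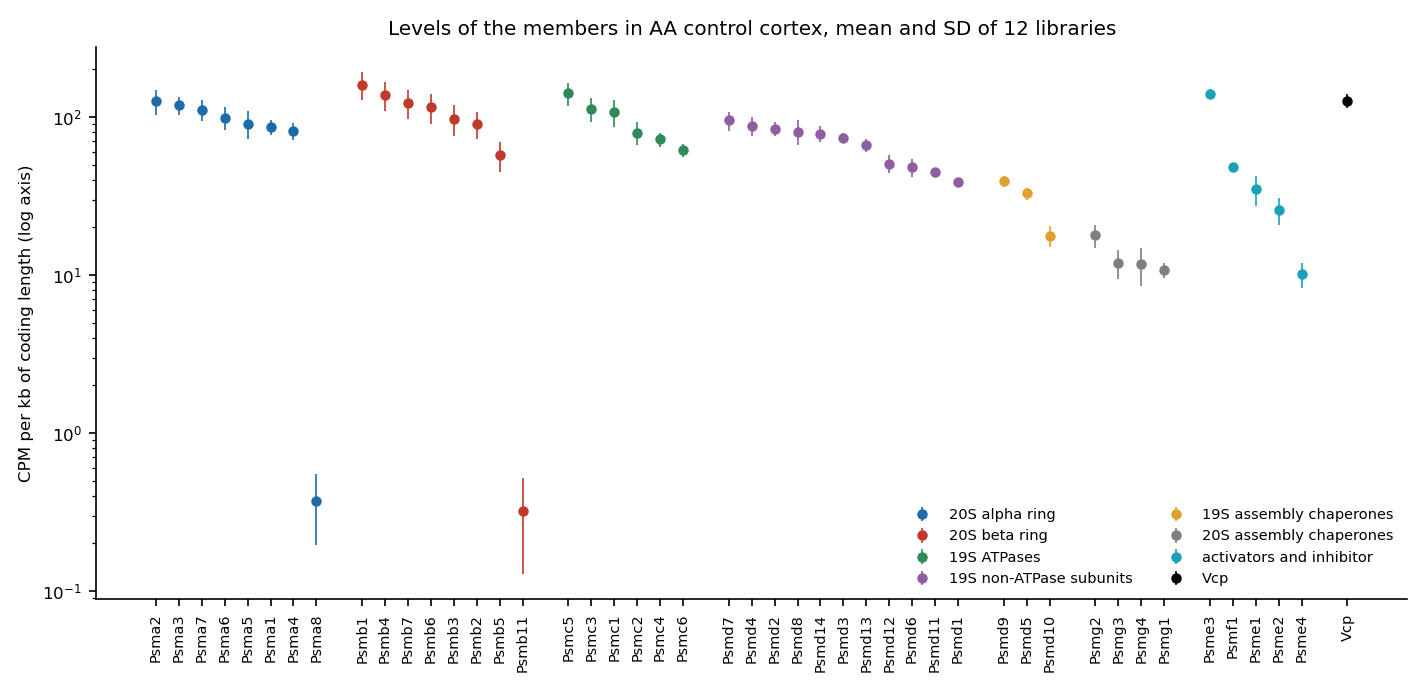
Level of each of the 46 genes in AA control cortex (vertical axis, CPM per kb of coding length, log axis), grouped by role; points are means and bars the SD of 12 libraries. Psma8 and Psmb11 lie at 0.371 and 0.322, far below the other subunits, and the 4 chaperones of 20S assembly lie at 10.8 to 17.8.

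Spread between AA control mice differed among the genes. Besides the scarce Psmb11 and Psma8, whose coefficients of variation were 60.1% and 47.3% in cortex and 48.9% and 39.8% in hippocampus, it was largest for the 20S chaperone Psmg4 in cortex (26.8%) and the beta subunit Psmb3 in hippocampus (25.7%). It was smallest in cortex for Psmd11, a 19S lid subunit, at 4.34%, the inhibitor Psmf1 at 5.67% and the 19S scaffold subunit Psmd1 at 6.2%. These controls came from series A and B. Within the 8 AA controls of series B alone, the coefficient in cortex was 3.39% for Psmd11, 5.78% for Psmf1 and 7.08% for Psmd1, and from 8.45% (Psma1) to 23.1% (Psmb7) for the alpha and beta ring subunits other than Psma8 and Psmb11. Psmg4 had 30.1% there, and Psmb3 had 21.4% in the 8 series B mice in hippocampus.

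The regulatory letters near the start of some of these genes are shown because most of the 46 were higher in series A than in series B controls, as given below. Psme4, among the genes with such letters, was lower there. A link between the letters and the levels was not tested. RefSeq start windows (250 bases before to 50 after the start) were matched for 38 of the 46 genes, 3 of which had more than 1 window, giving 41 windows. The antioxidant response element letters TGACNNNGC, which NRF1 and NRF2 bind with small MAF proteins, were found on either strand in 7 of the 41 (17.1%; Psmb5, Psmb6, Psmc6, Psmd12, Psmd9, Psme4 and Vcp) and in 4071 of all 32851 windows (12.4%). CCAAT, the letters bound by NF-Y, was in 14 of the 41 (34.1%) and in 12289 of all windows (37.4%). The 120 bases before the start are given for Vcp and for the catalytic subunits Psmb5 and Psmb6, read 5′ to 3′ on the gene's own strand from GRCm38.p6, with the matches to either set of letters on either strand in capitals.
Vcp, chr4:43000508-43000627, minus strand: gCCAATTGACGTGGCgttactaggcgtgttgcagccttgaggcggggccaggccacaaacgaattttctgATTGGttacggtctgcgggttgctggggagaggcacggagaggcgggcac
Psmb5, chr14:54617996-54618115, minus strand: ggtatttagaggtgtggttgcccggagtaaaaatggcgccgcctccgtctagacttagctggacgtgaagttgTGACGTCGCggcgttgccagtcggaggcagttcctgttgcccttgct
Psmb6, chr11:70525237-70525356, plus strand: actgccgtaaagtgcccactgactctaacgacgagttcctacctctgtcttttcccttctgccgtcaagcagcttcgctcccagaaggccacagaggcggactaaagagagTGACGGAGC
In the stretch printed for Vcp the TGACNNNGC match directly follows a CCAAT, and a second CCAAT lies on the other strand. In Psmb6 the TGACNNNGC match ends at the base before the start. Binding at these letters was not tested. In GRCm39, the build of the counts, Vcp (ENSMUSG00000028452.8) spans chr4:42979412-43000527, Psmb5 (ENSMUSG00000022193.8) chr14:54850776-54855481 and Psmb6 (ENSMUSG00000018286.7) chr11:70416183-70418684. All are protein-coding genes counted over their exons. Of the exon bases of Vcp, 19.7% overlap a gene on the other strand, and the strand setting of the counting is not given in the sources used here. Psmb6 and Psmb5 have 2 and 1 pseudogene copies in the gene table, so that some reads could be shared.

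Cortex and hippocampus of untreated mice had similar levels of most of the 46 genes. In a fit that did not pair the tissues by mouse, 2 of the 46 were called in AA mice, against 36.6% of all genes tested. With the pairing, given below, 17 were, against 50.2%. The median log2 fold change of cortex over hippocampus without pairing was 0.04 in AA mice. Psmc5 ran from 138.7 to 216.7 CPM in AA cortex (median 165.9) and from 115.3 to 172.2 CPM in hippocampus (median 119.9). It was 1.30-fold higher in cortex (log2 0.37 ± 0.12 SE, adjusted p = 0.00941), with overlapping ranges. Psmf1, known as PI31, was at 35, 39.7 and 43 CPM (lowest, median and highest) in AA cortex and at 31.5, 33.2 and 35.4 CPM in hippocampus, 1.21-fold higher in cortex (adjusted p = 2.85e-05). It was higher in SS cortex as well (log2 0.27 ± 0.06, adjusted p = 0.000786), where 3 of the 46 were called against 30.6% of all genes. The other 2, both lower in SS cortex than in SS hippocampus, were the activator subunit Psme1, with medians of 25.5 and 30.5 CPM (log2 -0.38 ± 0.15, adjusted p = 0.0479), of whose exon bases 51.9% overlap Emc9 on the other strand, and the scarce Psmb11 (log2 -1.13 ± 0.41, adjusted p = 0.0334). Vcp did not pass the test in either genotype (log2 0.07 ± 0.07 in AA and -0.03 ± 0.09 in SS). With the mouse as a block, since both tissues came from the same mice, 17 of the 46 were called in AA (8 higher and 9 lower in cortex; 50.2% of all genes) and 10 in SS (4 and 6; 44.5%). Psmf1, Psmc5, Psmc1 and Psme4 were then higher, and Psme1, Psmd5, Psmd6 and Psmb2 lower, in the cortex of both genotypes. Psmc5 had adjusted p = 4.17e-07 in AA and 0.0001 in SS.

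SS and AA controls were compared to ask whether sickle cell disease by itself changed these genes. None of the 46 was called in either tissue (edgeR, and 0 by DESeq2), against 0.214% of all genes in cortex and 0.159% in hippocampus. At an unadjusted p under 0.05 there were 0 in cortex and 1 in hippocampus. The median log2 fold change was -0.06 in cortex and -0.01 in hippocampus. Vcp was at 253.7, 282.9 and 321.7 CPM in SS cortex (lowest, median and highest) and at 259.6, 318.6 and 348.7 CPM in AA cortex, ranges that overlapped over most of their length, with log2 -0.13 ± 0.09 (adjusted p = 0.813). Psmd1 had log2 -0.11 ± 0.07 (adjusted p = 0.772). In hippocampus Vcp was at 258.7, 291.6 and 358.9 CPM in SS and 261.8, 294.5 and 339.0 CPM in AA, with log2 -0.03 ± 0.10. The scarce Psmb11 had 0.98 ± 0.40 and Psmd1 -0.11 ± 0.07, both at adjusted p = 1.0 (edgeR).

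Whether stress changed these genes in sickle mice was asked by comparing SS + RSD with SS. In cortex 45 of the 46 fold changes were above 0 and their median log2 was 0.36, against 0.08 over all genes tested, but none was called (2.57% of all genes were), and 24 of the 46 had an unadjusted p under 0.05, where 27.7% of all genes did. Vcp was at 322.8, 332.2 and 346.6 CPM in SS + RSD cortex (lowest, median and highest of 6), so that all 6 lay above the 8 SS libraries, the highest of which had 321.7 CPM. Its log2 fold change was 0.33 ± 0.10 (1.26-fold, adjusted p = 0.0625). Psmd1, the largest 19S subunit, was at 103.8, 118.2 and 123.4 CPM against 98.1, 102.7 and 112.7 CPM in SS, ranges that overlapped, with log2 0.28 ± 0.09 (1.22-fold, adjusted p = 0.0636). The median was largest over the 8 beta ring genes, 0.50, and was 0.34 over the alpha ring, 0.39 over the 19S ATPases, 0.31 over the other 19S subunits and 0.19 over the activators and inhibitor. DESeq2 called 3 of the 46 higher (Vcp at adjusted p = 0.036, Psmd1 at 0.0226, and Psmd11; 2.73% of all genes), and edgeR fitted on these 2 groups alone called 12 higher (7.17% of all genes).

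Library content and cell type markers moved with this comparison. The median share of reads outside genes was 9.75% in SS cortex and 4.18% in SS + RSD cortex (7.83% and 4.38% in hippocampus). With this share as a term the cortex median over the 46 genes was 0.03, Vcp had 0.13 and no gene was called (0.0% of all genes). The summed level of 5 astrocyte genes, led by Slc1a3, was 843.0 to 1113.8 CPM in SS cortex and 1090.7 to 1643.0 CPM in SS + RSD. All 5 astrocyte and all 5 microglia genes had fold changes above 0, with medians of 0.45 and 0.46, and none was called; their part in the result was not tested.

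The same comparison within a number series gave smaller values. The 2 SS controls of series A, the series of all SS + RSD mice, had 315.9 and 321.7 CPM of Vcp in cortex, and the 6 of series B had 253.7 to 311.0 CPM. Within series A, 6 against 2 mice, Vcp had log2 0.09 ± 0.08 and the median over the 46 genes was 0.03. When number series was added to the model, the median was 0.03 and Vcp had 0.09. The sum of 46 members, the CPM of the 46 genes added up, ran from 3520.3 to 4978.5 CPM in SS + RSD cortex (median 3892.9) and from 3073.3 to 4191.4 CPM in SS (median 3321.4).

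**Figure D2:**
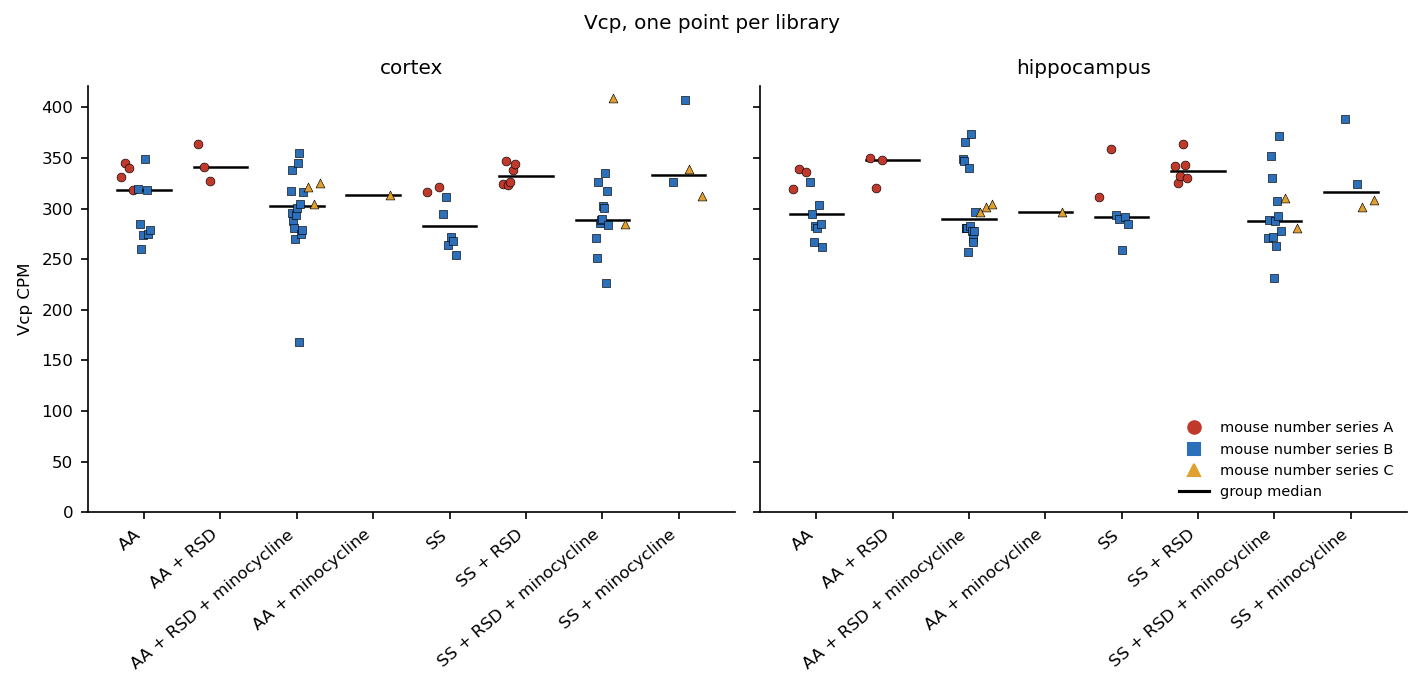
Vcp level (vertical axis, CPM) in each library by group, for cortex and hippocampus; colours and shapes give the mouse number series and lines the group medians. The 6 SS + RSD cortex libraries (322.8 to 346.6) lie above the 8 SS libraries, of which the 2 of series A are the highest.

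In hippocampus 43 of the 46 fold changes of SS + RSD over SS were above 0, with a median log2 of 0.20 against 0.06 over all genes, and none was called (3.11% of all genes; 4 of the 46 at an unadjusted p under 0.05, where 19.6% of all genes were, 0 by DESeq2). Vcp was at 325.7, 337.1 and 364.2 CPM in SS + RSD against 258.7, 291.6 and 358.9 CPM in SS (log2 0.28 ± 0.12, 1.22-fold, adjusted p = 0.172), and the highest SS library, of series A, lay inside the SS + RSD range. Psme4, the nuclear activator PA200, had the opposite sign (log2 -0.26 ± 0.11, adjusted p = 0.185). The median over the 46 genes was -0.10 within series A and -0.12 when number series was added to the model.

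SS + RSD + minocycline was compared with SS + RSD to ask whether minocycline changed the response of sickle mice to defeat. The drug was given from the day before defeat began until its last day. In cortex 3 of the 46 were called, all lower with minocycline, where 2.47% of all genes were called lower and 8.85% in either direction. The median log2 fold change was -0.25, against -0.05 over all genes. Psmd1 (ENSMUSG00000026229.18, chr1:85992097-86070048) was at 86.0, 100.6 and 127.4 CPM in SS + RSD + minocycline against 103.8, 118.2 and 123.4 CPM in SS + RSD, and fell by 0.30 on the log2 scale (SE 0.08, 1.23-fold lower, adjusted p = 0.0182). Psmd2 (ENSMUSG00000006998.17, chr16:20470346-20485708), with Psmd1 a scaffold of the 19S base, was at 180.5, 215.0 and 283.8 CPM against 220.8, 246.2 and 284.1 CPM and fell by 0.30 (SE 0.10, adjusted p = 0.0419). Vcp was at 226.8, 289.2 and 409.0 CPM against 322.8, 332.2 and 346.6 CPM and fell by 0.28 (SE 0.09, 1.21-fold lower, adjusted p = 0.0495). For each of the 3 genes the minocycline group spanned nearly or wholly the range of SS + RSD.

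These 3 calls did not hold in every fit. When number series was added to the model none of the 46 was called (0.0% of all genes), the median log2 was 0.22 and Vcp had 0.03 and Psmd2 0.13. With the share of reads outside genes as a term none was called (0.0201% of all genes) and Vcp had -0.08. Without SS + RSD mouse 9616 none was called (0.744% of all genes were called lower). Without mouse 5354, 5391, 5400, 9615 or 9621 of that group 1 was called lower, where 1.2%, 0.641%, 1.33%, 0.678% and 1.98% of all genes were. Without SS + RSD + minocycline mouse 7076, whose Vcp of 409.0 CPM was the highest in its group, 4 were called lower (7.59% of all genes) and Vcp had adjusted p = 0.0111. From the pathway lists, 1 of 12 ubiquitin and shuttle genes, Uba1, the main ubiquitin-activating enzyme (log2 -0.26 ± 0.07, adjusted p = 0.0155), 1 of 8 regulators, Nfe2l1 (-0.23 ± 0.06, adjusted p = 0.0165), and 1 of 22 VCP cofactors were also lower with all mice kept, and none was higher. In that fit 2.47% of all genes were lower and 8.85% were called in either direction. Fold changes were above 0 for 2 of the 12, 1 of the 8 and 5 of the 22. No gene at all was called once number series was in the model, these included. Of 5 markers each, 2 astrocyte genes (Aldh1l1 and Gja1), 1 microglia gene (Tmem119), 1 endothelial gene (Pecam1) and 2 erythroid genes (Epb42 and Slc4a1) were lower and none higher with all mice kept, where 2.47% of all genes were lower. The fold changes of all 5 were below 0 for astrocytes, microglia, erythroid cells, neurons and oligodendrocytes, with medians of -0.40, -0.29, -1.02, -0.16 and -0.16, and their part in the result was not tested. In hippocampus none was called (5.96% of all genes; 2 of the 46 at an unadjusted p under 0.05; 1 by DESeq2, Psme4 higher, where 8.51% of all genes were higher). Psme4 had log2 0.32 ± 0.10 (adjusted p = 0.0524) and Vcp -0.25 ± 0.10 (adjusted p = 0.114), and Vcp had 0.13 when number series was added to the model.

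Minocycline without defeat was compared in sickle mice, SS + minocycline against SS. None of the 46 was called in cortex (0.0% of all genes; 3 of the 46 at an unadjusted p under 0.05, 0 by DESeq2), and 45 had a fold change above 0, with a median log2 of 0.29 against 0.04 over all genes. Vcp was at 312.4, 326.6, 339.5 and 407.0 CPM in the 4 mice (log2 0.34 ± 0.12, adjusted p = 0.666), so that 3 of the 4 lay above all SS mice. Psmd2 had log2 0.29 ± 0.12 (adjusted p = 0.666). A single mouse, 9889, had the highest summed level of the 46 genes in cortex, 5802.5 CPM, where the others of its group had 3034.1, 3134.8 and 4154.7. Without it the median log2 was 0.01. The 2 mice of series B alone, against the 6 SS mice of series B, gave 39 higher and 1 lower of the 46, where 40.3% of all genes were called. In hippocampus none was called (0.0% of all genes; 1 of the 46 at an unadjusted p under 0.05, 0 by DESeq2), the median log2 was 0.20 and Vcp had 0.23 ± 0.13 (adjusted p = 0.981) and Psmd1 0.25 ± 0.10 and Psmd2 0.26 ± 0.14. The 2 series B mice against the 5 SS mice of series B gave 39 higher and 1 lower (30.1% of all genes). Of reads in these libraries, 4.31% and 4.36% lay outside genes in the 2 treated mice and 7.6% to 10.71% in the 5 SS mice, so that treatment and this share cannot be told apart there. In cortex the shares were 9.84% and 3.85% in the 2 treated mice and 8.63% to 11.04% in the 6 SS mice.

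SS + RSD + minocycline against SS + minocycline gave no calls in cortex (0.0% of all genes; 2 of the 46 at an unadjusted p under 0.05, 0 by DESeq2), with a median log2 of -0.18, Vcp at -0.29 ± 0.11 (adjusted p = 0.979) and Psmd2 at -0.28 ± 0.11. Its sign turned with the mice compared: within series B, 12 against 2 mice, 16 of the 46 were lower (9.6% of all genes) and the median was -0.65, within series C, 2 against 2, the median was 0.62, and without mouse 9889 it was 0.10. The series C value leans on mouse 7076, with a summed level of the 46 genes of 5718.2 CPM. Mouse 7078 had 3314.5 CPM, and the SS + minocycline mice of series C had 3134.8 and 3034.1 CPM. With all series compared but without mouse 7076, 1 of the 46 was called lower (2.83% of all genes). In hippocampus none was called (0.0% of all genes; 0 at an unadjusted p under 0.05 and 0 by DESeq2), the median was -0.14, and Vcp had -0.20 ± 0.12 and Psmb11 -0.81 ± 0.50.

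In AA mice the same steps gave no calls. AA + RSD against AA in cortex had 0.853% of all genes called and none of the 46 (0 at an unadjusted p under 0.05, 0 by DESeq2), with a median log2 of 0.15. Vcp was at 327.7, 340.9 and 363.6 CPM in the 3 AA + RSD mice, inside or just above the AA range of 259.6 to 348.7 CPM (log2 0.18 ± 0.14, adjusted p = 0.579). Psmd6, a 19S lid subunit, had 0.27 ± 0.16 (adjusted p = 0.436) and Psmg2 0.25 ± 0.15 (adjusted p = 0.463). Without mouse 9674 the median was 0.02 and Vcp had 0.20. In hippocampus 1.19% of all genes and none of the 46 were called (1 at an unadjusted p under 0.05, Psmf1 with 0.20 ± 0.08, adjusted p = 0.216; 0 by DESeq2). The median there was 0.19, 0.14 without mouse 9674 and -0.05 within series A, and Vcp, at 320.3, 347.8 and 349.9 CPM, had 0.19 ± 0.12 (adjusted p = 0.475) and Psmd2 0.21 ± 0.12 (adjusted p = 0.432). Without mouse 9674 Vcp had 0.14 ± 0.15 there. Psmf1, higher in cortex than in hippocampus of controls, was at 35.5, 37.4 and 40.1 CPM in the hippocampus of the 3 AA + RSD mice. The highest was mouse 9674, whose cortex library had 30.8 CPM.

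AA + RSD + minocycline against AA + RSD gave no call of the 46 in cortex (3.6% of all genes; 2 at an unadjusted p under 0.05, 0 by DESeq2) or in hippocampus (2.67%; 2, and 1 by DESeq2, Psmf1 lower, where 3.01% of all genes were lower). Vcp had -0.25 ± 0.14 (adjusted p = 0.251) and -0.16 ± 0.12 (adjusted p = 0.463). Psmd1 had -0.21 ± 0.09 in cortex (adjusted p = 0.144) and Psmf1 -0.20 ± 0.07 in hippocampus (adjusted p = 0.123). The Psmf1 value and call include mouse 9674, the highest of AA + RSD there at 40.1 CPM. Psme4 had positive values in both tissues, 0.35 ± 0.17 and 0.27 ± 0.12. Without mouse 9674 the median moved from -0.19 to -0.07 in cortex and from -0.09 to -0.06 in hippocampus, and Vcp had -0.27 ± 0.16 and -0.11 ± 0.14. Mouse 9851 of AA + RSD + minocycline stood apart in cortex, with 168.3 CPM of Vcp, 129.6 CPM of Psmd2 and 110.4 CPM of Psme4, and 13.88% of its reads outside genes. Without it none of the 46 was called (5.44% of all genes), the cortex median was -0.20 and Vcp had -0.21 ± 0.10. In the 18 AA + RSD + minocycline mice Vcp ran from 168.3 to 354.4 CPM in cortex (median 302.1) and from 257.6 to 373.9 CPM in hippocampus (median 289.5), and the 1 AA + minocycline mouse, which has no replicate, had 313.3 and 296.6 CPM.

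Between genotypes after the same treatment there were no calls either. SS + RSD against AA + RSD had 0.493% of all genes called in cortex and 0.78% in hippocampus, none of the 46 (0 and 1 at an unadjusted p under 0.05, 0 by DESeq2), and Vcp had -0.05 ± 0.14 and 0.03 ± 0.14. In cortex Psmb11 had 1.01 ± 0.73 and the activator subunit Psme2 0.24 ± 0.24, and in hippocampus Psmf1 had -0.24 ± 0.09 (adjusted p = 0.26) and Psmd11 0.06 ± 0.06. The Psmf1 value includes mouse 9674, at 40.1 CPM in hippocampus. Without mouse 9674 Vcp had -0.08 ± 0.18 in cortex and 0.08 ± 0.16 in hippocampus, and the medians moved from 0.09 to 0.18 and from 0.00 to 0.04. SS + RSD + minocycline against AA + RSD + minocycline had 0.624% and 2.74% of all genes called, none of the 46 (2 and 0 at an unadjusted p under 0.05, 0 by DESeq2), with Vcp at -0.03 ± 0.07 and -0.05 ± 0.07. In cortex Psmb11 had 0.81 ± 0.35 (adjusted p = 0.487) and Psmd9 0.15 ± 0.06 (adjusted p = 0.507), and in hippocampus Psmd11 had 0.05 ± 0.03 and Psmb11 0.44 ± 0.31. Without mouse 9851 Vcp had -0.09 ± 0.07 in cortex and none was called. The difference of the RSD effect between SS and AA was tested directly, and none of the 46 passed in cortex (0.236% of all genes) or hippocampus (0.0474%). Vcp had a difference of 0.08 ± 0.17 and 0.06 ± 0.17, so the values of SS and AA mice could not be told apart at this size. The difference came from a model of both genotypes, while the effects within SS and within AA given above came from separate models. It therefore need not equal the gap between those effects. The difference of the minocycline effect in mice with RSD, from the same model of both genotypes, also had none of the 46 called (0.231% and 0.762% of all genes). Vcp was at 0.01 ± 0.16 and -0.07 ± 0.16. Over these 4 tests of a difference the counts at an unadjusted p under 0.05 were 0, 1, 0 and 1, and DESeq2 called none. Without mouse 9674 none of the 46 was called in any of the 4 tests. Vcp then had 0.10 ± 0.20 and 0.11 ± 0.19 for the RSD effect in cortex and hippocampus and 0.03 ± 0.19 and -0.13 ± 0.18 for the minocycline effect. The cortex median of the RSD difference moved from 0.15 to 0.29. Without mouse 9851 the minocycline difference of Vcp in cortex was -0.03 ± 0.15, with none of the 46 called. Outside SS + RSD against SS, the comparisons between groups and these tests had 2.17% to 26.8% of all genes at an unadjusted p under 0.05. The share is not given for each comparison. The counts of the 46 at that level are therefore not read as more or fewer than among all genes.

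These genes also differed between untreated mice of different number series. In the controls of both genotypes, with genotype as a term, 39 of the 46 were higher and 1 was lower in series A than in series B in cortex, where 19.3% of all genes were higher and 23.6% lower (42.8% called in all). In hippocampus 37 were higher and 1 lower, against 23.6% higher and 20.7% lower of all genes (44.3% in all). The median log2 fold change was 0.30 in cortex and 0.44 in hippocampus, against -0.01 and 0.00 over all genes tested. DESeq2 called 40 (45.1% of all genes) and 38 (47.9%).

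Among the proteolytic subunits, Psmb6, the caspase-like subunit, was at 89.2, 103.8 and 118.5 CPM in cortex of the 6 series A controls (lowest, median and highest) and at 62.3, 68.9 and 97.9 CPM in the 14 of series B, with little overlap. It was 1.46-fold higher in cortex (log2 0.55 ± 0.09, adjusted p = 0.000234) and 1.61-fold higher in hippocampus (0.69 ± 0.09, adjusted p = 7.29e-05), where the 5 series A controls, at 101.6 to 127.3 CPM, lay just above the 13 of series B, at 68.1 to 101.5. Psmb5, the chymotrypsin-like subunit, was at 67.7 to 80.1 CPM in series A hippocampus and 29.8 to 63.7 in series B without overlap, 1.75-fold higher (0.81 ± 0.12, adjusted p = 0.000146). In cortex its ranges overlapped, 38.4 to 71.8 against 28.4 to 64.4 CPM (1.44-fold, adjusted p = 0.00483). Psmb3, a structural beta subunit, was 1.44-fold higher in cortex (medians 75.5 and 51.1 CPM, adjusted p = 0.000684) and 1.61-fold higher in hippocampus (84.0 and 53.6 CPM, adjusted p = 0.000223).

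By role, 7 of 8 alpha ring genes, 7 of 8 beta ring genes, 6 of 6 19S ATPases, 9 of 11 other 19S subunits, 3 of 3 19S chaperones and 3 of 4 20S chaperones were higher in series A cortex. In hippocampus the counts were 7, 7, 5, 8, 3 and 3. The role medians were 0.48 and 0.59 for the beta ring in cortex and hippocampus, 0.40 and 0.51 for the ATPases, 0.32 and 0.48 for the alpha ring, and 0.28 and 0.33 for the other 19S subunits. The ring genes not called in either tissue were Psma8 and Psmb11. The 19S lid subunits Psmd3 and Psmd11 were not called either: Psmd11 was at 51, 57.4 and 58.4 CPM in series A cortex and 53.2, 57.1 and 59.5 CPM in series B (log2 0.03 in cortex and -0.01 in hippocampus). Of the activators and inhibitor 3 were higher in each tissue, Psmf1 did not pass (0.07 and 0.09), and Psme4 went the other way. Psme4 (ENSMUSG00000040850.18, chr11:30721725-30830376) was at 42.1, 43.7 and 53.9 CPM in series A cortex against 44.7, 61.2 and 68 CPM in series B, 1.28-fold lower (log2 -0.35 ± 0.07, adjusted p = 0.00086), and 1.33-fold lower in hippocampus (-0.41 ± 0.07, adjusted p = 0.000186).

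Vcp was at 315.9, 326.2 and 344.9 CPM in series A cortex and at 253.7, 276.9 and 348.7 CPM in series B. It was 1.18-fold higher in series A (log2 0.25 ± 0.06, adjusted p = 0.00277). In hippocampus it was at 311.3, 336.2 and 358.9 CPM against 258.7, 285.2 and 326.1 CPM, 1.24-fold higher (0.31 ± 0.06, adjusted p = 0.000354). Some series B controls thus had as much Vcp as series A mice.

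**Figure D3:**
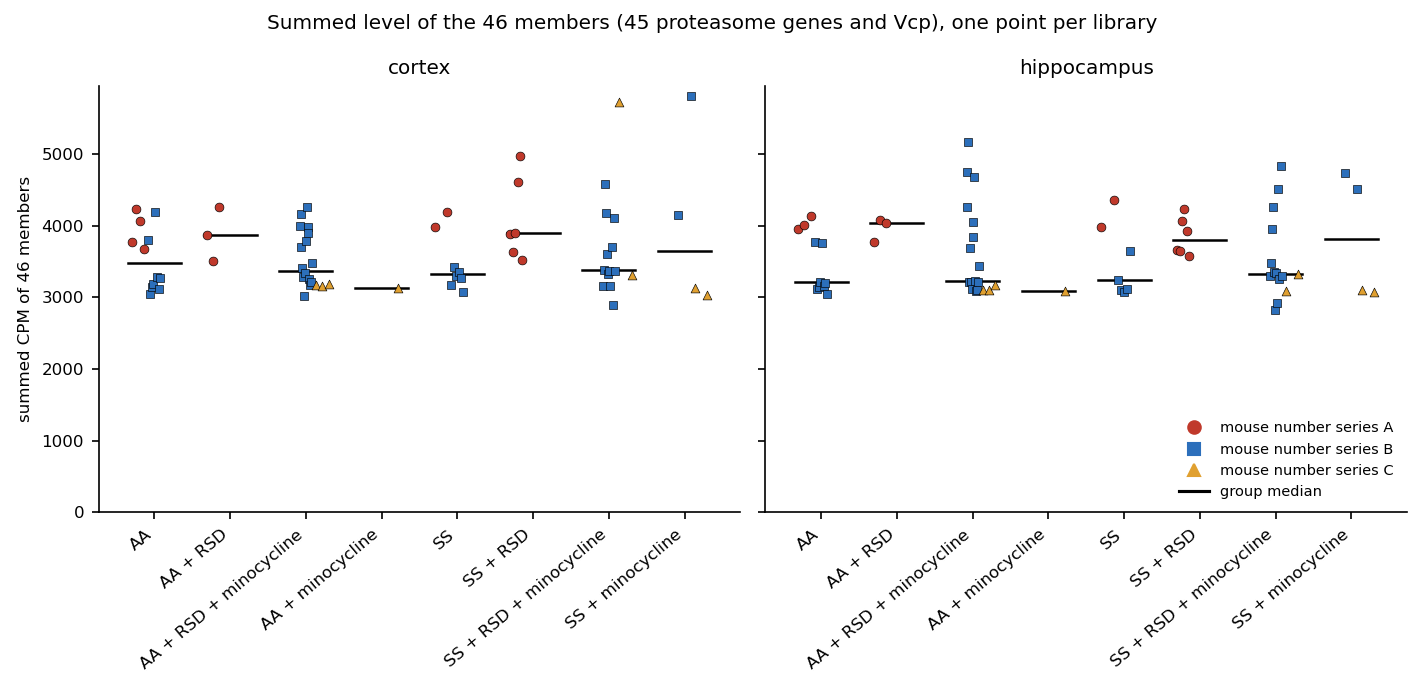
The sum of 46 members, the CPM of the 46 genes added up (vertical axis), in each library by group, with the mouse number series as colour and shape and group medians as lines. In cortex the series A controls lie at 3680.6 to 4228.0 and most series B controls near their median of 3270.1; mice with RSD alone are all of series A.

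**Figure D4:**
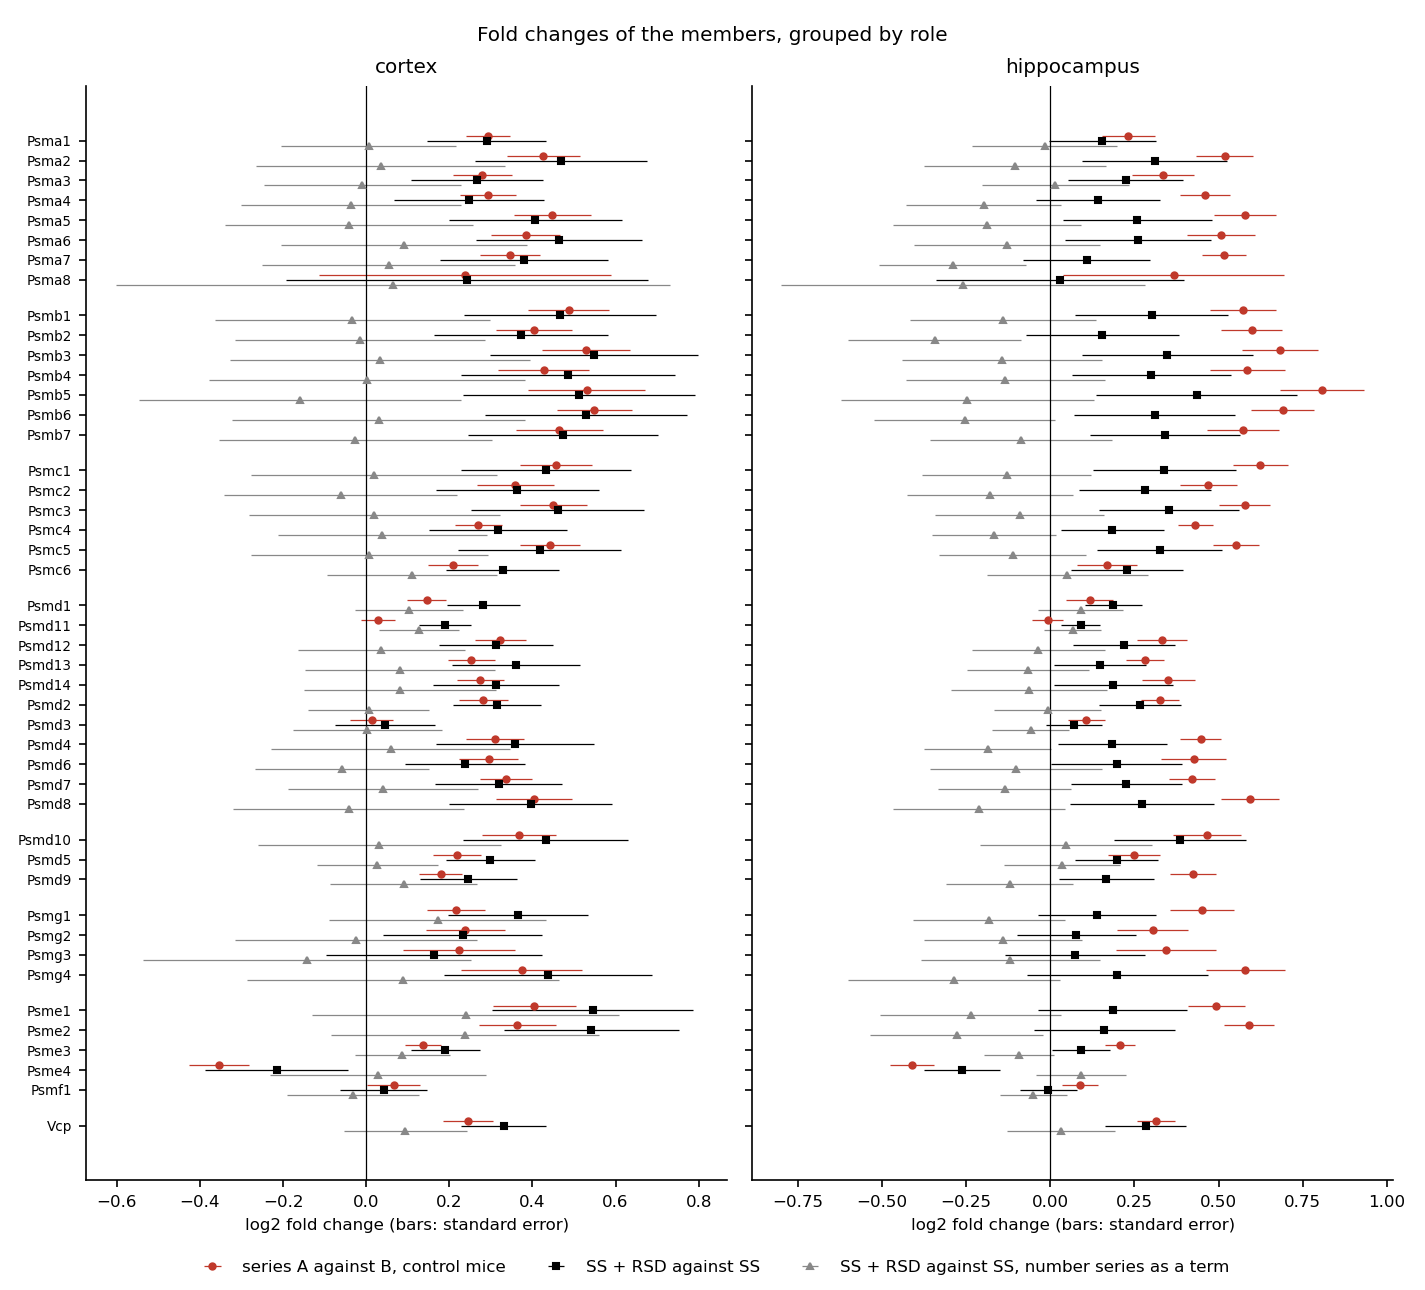
Log2 fold changes with standard errors of 45 of the 46 genes (Psmb11, near 0, is not drawn), by role: series A over B in control mice, SS + RSD over SS, and the latter with number series in the model. In cortex the first 2 sets have medians of 0.30 and 0.36 and the third has 0.03.

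The number series went with the share of reads that fell outside annotated genes, a measure of library content. Over all tested libraries this share split at about 6.3%, a limit chosen after the values were seen. In cortex the 28 libraries under it (3.68% to 6.09%) had a summed level of the 46 genes of 3509.0, 4028.6 and 5802.5 CPM, and the 38 over it (7.34% to 13.88%) had 2887.3, 3261.2 and 4154.7 CPM. In hippocampus 27 were under it, with 3573.2, 4049.7 and 4837.2 CPM, and 37 over it, with 2817.0, 3167.6 and 5170.5 CPM. Of series A 14 of 15 cortex and 14 of 14 hippocampus libraries were under the limit, of series B 13 of 43 and 13 of 42, and of series C 1 of 8 and 0 of 8. The 1 of series C was mouse 7076, with 4.27% and the second highest summed level in cortex, 5718.2 CPM. Libraries over the limit with a summed level inside the range of those under it were, in cortex, mouse 9888 (9.84% of reads outside genes, 4154.7 CPM), 9851 (13.88%, 3903.7 CPM), 5354 (8.39%, 3889.2 CPM) and 5883 (9.76%, 3599.5 CPM). In hippocampus they were 5838 (7.82%, 3684.2 CPM) and 9903 (8.29%, 3642.0 CPM), and mouse 5648, at 9.48%, had the highest summed level there, 5170.5 CPM.

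Vcp followed the same split, with medians of 333.1 CPM under the limit and 286.5 over it in cortex and of 339.0 and 285.1 in hippocampus, and Psme4 the reverse, with 46 and 63 CPM in cortex and 42.8 and 57.9 in hippocampus. With the share of reads outside genes as a term, none of the 46 was called between series A and B in cortex (median log2 0.03, 0.0% of all genes), and 17 were higher and 1 lower in hippocampus (median 0.29, 11.5% of all genes).

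**Figure D5:**
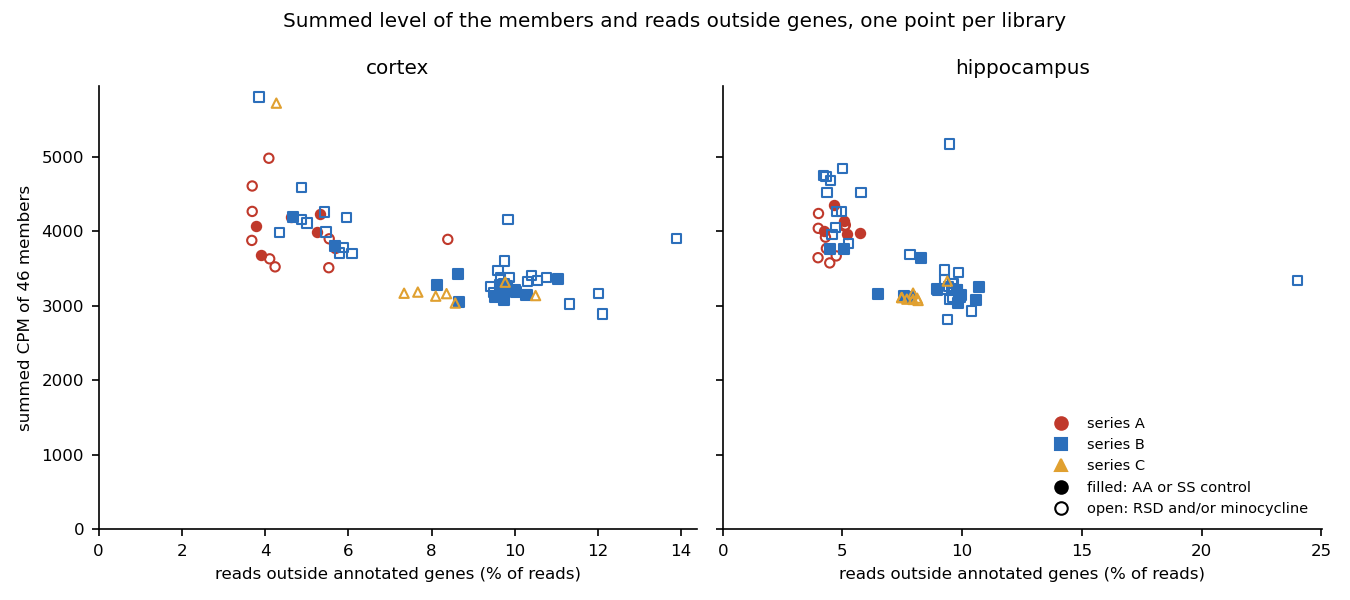
Summed level of the 46 genes (vertical axis, CPM) against the share of reads outside annotated genes (horizontal axis, %), 1 point per library; colour and shape give the number series and filled points are untreated controls. Libraries under 6.3% lie at 3509.0 CPM or higher in cortex, whatever their series, and the others have a median of 3261.2 CPM.

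Exon length was set beside the fold change of series A over B. Across genes, which are not independent replicates, Spearman's rho of exon length with the fold change of series A over B was -0.36 in cortex and -0.46 in hippocampus over the 46, and -0.14 and -0.11 over all genes tested. Genes tested in cortex were put in 4 equal bins by length. In the shortest bin (49 to 1814 bases of exon) the median log2 was 0.05 over all genes and 0.37 over the 23 that are among the 46. In the next bins the medians were 0.06 and 0.28 (11 genes), 0.00 and 0.24 (10), and -0.09 and 0.07 (2). The longest bin held only Psmb1, at 0.49, and Psme4, at -0.35, both called, so that its median lies midway between changes of opposite sign. In hippocampus the medians over the 46 were 0.52, 0.36, 0.31 and 0.08 from the shortest bin to the longest, where Psmb1 had 0.57 and Psme4 -0.41.

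The genes around the proteasome were counted against the same background between series A and B, 19.3% of all genes higher and 23.6% lower in cortex and 23.6% higher and 20.7% lower in hippocampus. Of the 3 immunoproteasome subunits, which replace the proteolytic beta subunits in immune cells, 3 were higher in cortex and 2 in hippocampus. Psmb8 had log2 0.40 and 0.82, Psmb10 0.49 and 0.47, and Psmb9 0.49 and 0.47 (adjusted p = 0.0483 and 0.0504). Their summed level was 39.6, 49.1 and 56.1 CPM in series A cortex against 27.5, 34 and 50.1 CPM in series B. Of the partners outside the naming rule, 4 of the 7 tested were higher in each tissue, led by Sem1, a small 19S subunit (0.61 and 0.73), and Pomp, the chaperone that matures the core (0.55 and 0.67). Usp14, the deubiquitinase of the 19S particle, did not pass (-0.05 and -0.13).

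Of 22 VCP cofactors, 6 were higher and 3 lower in cortex and 8 and 5 in hippocampus, with medians near 0 (0.02 and 0.00), where 42.8% and 44.3% of all genes were called in either direction. In cortex the called share of the cofactors was close to that of all genes. The p47 cofactor Nsfl1c (0.33 in cortex) and Ubxn1 (0.38) were higher and the ER ubiquitin ligase Syvn1 (-0.21) was lower in cortex, while Ufd1 and Nploc4, the pair that recruits ubiquitin-tagged substrates to VCP, had 0.02 and -0.07. Of 12 ubiquitin, activating enzyme and shuttle genes, 4 were higher and 1 lower in cortex and 5 and 1 in hippocampus. In cortex Rps27a, a ubiquitin fusion gene with a ribosomal protein, had 0.80 and the polyubiquitin gene Ubb 0.40. Of 8 regulators 3 were higher and 1 lower in each tissue, and the called shares of this list and of the ubiquitin genes were near those of all genes. Nfe2l1 had 0.15 and 0.16, Nfe2l2, which encodes NRF2, 0.32 and 0.37, the NF-Y subunit Nfyc 0.13 and 0.21, and Mafg, a small MAF partner, was lower (-0.38 and -0.42). In the other contrasts between groups these lists gave few calls. Among them, 1 of 22 VCP cofactors was lower in cortex and 1 higher in hippocampus in AA + RSD + minocycline against AA + RSD, where 3.6% and 2.67% of all genes were called. In SS + RSD + minocycline against AA + RSD + minocycline 1 of 8 regulators was higher in each tissue, where 0.624% and 2.74% of all genes were called.

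Markers of some cell types moved with the number series too, where 19.3% of all genes were higher in cortex and 23.6% in hippocampus, and their part in the result was not tested. Of 5 microglia genes 4 were higher in series A in each tissue. Of 5 astrocyte genes 3 were higher in each tissue, with summed levels of 1074.7, 1124.9 and 1184.4 CPM against 830.2, 963.9 and 1291.0 CPM in cortex, Slc1a3 being the most abundant. Of 5 endothelial genes 3 were higher in each tissue, though the summed level, led by Flt1, had medians of 251.9 and 252.5 CPM in cortex. Of 5 oligodendrocyte genes, led by Mbp, 1 was higher in cortex and 4 in hippocampus. Of 5 neuron genes 1 was higher in cortex, and 1 higher and 1 lower in hippocampus. None of the erythroid or choroid plexus genes was called. In AA + RSD against AA, 5 of 5 choroid plexus genes were higher in cortex, with a median log2 of 5.34, where 0.853% of all genes were called in either direction. Their summed level was 11.4, 24.5 and 5181.2 CPM in the 3 AA + RSD mice, the last of them mouse 9674, so that this rests on 1 library.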

How the data were processed

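Per the labels and the study's methods, polyA RNA was made into strand-specific single-read libraries with the NEBNext Ultra II Directional kit, and the authors mapped reads to GRCm39 with STAR, which counted them per GENCODE gene while mapping. The deposited values are these raw gene counts, 1 table per tissue. The STAR version, annotation release and strand setting are not given in the sources used here. The tables listed 55416 genes, 5111 of them without a symbol, and 4 summary lines. The median share of reads was 12.4% unmapped, 4.98% mapped to several places, 8.25% outside genes and 1.25% ambiguous in cortex; these lines were kept out of library sizes and tests. One sample whose tissue label and name differ was assigned to no group, and 3 columns were not used. Of 134 libraries with a group, 4 with identical counts were left out and 130 (66 cortex, 64 hippocampus; 68 mice in all) were compared.

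Counts were fitted per tissue with edgeR 4.0.16 in R 4.3.3. Settings were filterByExpr with a minimum count of 10 and a total of 15, TMM and the quasi-likelihood test. Groups of 1 genotype shared a model for comparisons within that genotype, with 19906 genes tested in cortex for SS and 21927 for AA. Comparisons between genotypes, and differences of an effect between genotypes, came from a model of both genotypes, with 22926 genes tested in cortex. Benjamini-Hochberg adjustment was over all genes tested. Control mice of series A and B were compared with genotype as a term, and tissues in 1 model of both. CPM is a count divided by the library's total on genes, without TMM. DESeq2 1.42.0, RLE size factors, no filter, groups fitted alone, the number series or the share of reads outside genes as a term, libraries left out and a block by mouse were tried as alternatives. The fits were tested on simulated data. The labels give cortex and hippocampus libraries of a mouse the same number; over 18 control pairs the deviations of same-numbered libraries correlated at 0.234 to 0.78 (median 0.548, 19255 genes), so the numbers pair the libraries. Mice of a group are taken as separate animals from their numbers. Intervals of fold changes are standard errors, and those of levels are SDs. Within a tissue each library is 1 mouse. In the fit of cortex against hippocampus without the block, libraries of the same mouse count separately.

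The 46 genes, the pathway and marker lists, the number series and the tests were chosen with earlier results of these data known. Vcp is named in every comparison between groups; otherwise the 3 largest fold changes in each direction among called genes are named, or, with none called, the 2 genes of smallest adjusted p; for levels, the 3 highest and 3 lowest per kb of exon in AA cortex and the 3 most variable; other genes are named for their role. Promoter windows and gene starts came from RefSeq (GRCm38.p6). The values of some listed genes are not reported here.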

Additional observations from a re-analysis of the deposited data

Results flagged for a closer look

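Of 54 tests for a library standing apart, each of 1 level within 1 group and tissue, 1 found such a library. For a single test chance gives about 1 in 20. The tests share libraries, so they are not independent. Psmd2 was at 258.9 CPM in the hippocampus of SS mouse 5353 and at 192.3 to 220.9 CPM in the other 6 SS mice, a gap of 0.571 of the group's range. This mouse is in series A. Groups of more than 10 libraries were not tested in this way; among them, AA + RSD + minocycline mouse 9851 had 168.3 CPM of Vcp in cortex, where the other 17 had 270.2 to 354.4.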

How the results depend on the processing

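Of 273 counts of the 46 genes called under an alternative, 245 stayed within 1.5 times the reported count and 28 moved. Of 60 values of Vcp, 44 kept their direction and side of the threshold, 3 gained the call, 11 lost it and 2 turned sign; of 100 values of other named genes, 79 kept both, 20 lost the call and 1 turned sign. Beyond what the alternatives themselves change, the cause was not tested.

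SS + RSD against SS: DESeq2 called 3 of the 46 in cortex (Vcp log2 0.295) and the groups alone 12 (Vcp 0.292); in hippocampus the groups alone called 1, Vcp (0.253; 8.03% of all genes). SS + RSD + minocycline against SS + RSD in cortex, where 3 were called: RLE size factors and no filter called 1 each (9.43% and 3.05% of all genes; Vcp -0.252 and -0.266), the groups alone called 2 (10.3%) and gave Vcp -0.281 above the threshold, the number series as a term called 0 (Vcp 0.033, Psmd2 0.126), the share of reads outside genes as a term called 0 (Vcp -0.079), and without mice 5844, 5853, 7078 and 9631 1 was called (7.29%; Vcp -0.275). Leaving out each SS + RSD mouse called 0 to 1 and gave Vcp -0.283 to -0.222, and without mouse 7076 Vcp had -0.3. In hippocampus DESeq2 and the groups alone called 1 each (11.3% and 7.13%), and the number series as a term gave Vcp 0.134. AA + RSD + minocycline against AA + RSD in hippocampus: DESeq2 called 1.

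SS + minocycline against SS: 40 called within series B in each tissue. SS + RSD + minocycline against SS + minocycline in cortex: 16 within series B, and 1 without mouse 7076. Series A against B: with the share of reads outside genes as a term 0 were called in cortex and 18 in hippocampus; with no filter on low counts the median of all genes moved from -0.01 to -0.12 in cortex and from 0.00 to -0.18 in hippocampus. Cortex against hippocampus: the share of reads outside genes as a term called 14 in AA and 8 in SS (44.6% and 38.5% of all genes), no filter called 1 in SS (15.4% of all genes), and the replicate block by mouse number called 17 in AA and 10 in SS.

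The AA + RSD and minocycline-only groups held 1 to 4 mice. The mice given RSD alone share 1 number series.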
